A study of Mus musculus with 12 samples.

Results

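The RNA levels of 10 genes that mark or control haematopoietic stem and progenitor cells were examined in cultured bone marrow macrophages with and without BMI1. The genes were taken by symbol from the count table, which lists 55573 genes, and no filter on low counts was used for their levels. They were Cd34, Kit, Flt3, Sox4, Myb, Meis1, Gata2, Mpo, Irf8 and Ms4a3. In the test across genes, 14197 genes passed a filter on low counts, and 5 of the 10 were among them (Cd34, Sox4, Meis1, Irf8 and Gata2). The question was whether loss of Bmi1 leaves macrophages in a less mature state.

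Each genotype was studied as MM-MΦs (BMI1-KO and wt) and as MΦs (BMI1-KO and wt), which gave 4 groups of 3 libraries. All mice were C57BL/6 with both Bmi1 alleles floxed (BMI1fl/fl), and BMI1-KO mice carried Mx1-Cre in addition. At 6 to 8 weeks of age, mice of both genotypes were given 5 doses of poly I:C (15 mg/kg), and their marrow was taken 4 weeks after the last one. Mx1-Cre is driven by an interferon-inducible promoter and deletes in stem cells and many other cells, so the knockout was not made in mature macrophages alone. Over 7 days, adherent marrow cells were grown into MΦs in 10% FBS with M-CSF at 5 ng/mL. MM-MΦs were MΦs that were then kept for 48 h with 5TGM1 cells, a mouse myeloma line. CD11b+ F4/80+ cells were sorted for total RNA sequencing. Cells without both markers were left out, so the share of immature cells in each culture was not tested. It is not stated whether replicates came from separate mice, so the p-values rest on the spread among these libraries alone, which may be technical.

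The libraries held 9662279 to 11142768 counts. All 18 genes of a mature macrophage list passed the filter, with 10221 to 15357 counts of Adgre1 (the gene of F4/80) and 1174 to 2719 counts of Itgam (the gene of CD11b) per library. Bmi1 had 325, 281 and 364 counts in wt MM-MΦs and 251, 263 and 321 in wt MΦs, and both deposited units gave 0 for each of the 6 BMI1-KO libraries. In BMI1-KO, the total used for FPKM was 512 to 734 counts above the sum of the table, against −1.6 to 0.72 in wt. Because of this excess, the zeros of Bmi1 were not used to check the labels. Cdkn2a, a known target of BMI1, had 497 counts over BMI1-KO MM-MΦs against 1 over wt MM-MΦs, and 456 over BMI1-KO MΦs against 8 over wt MΦs. In a bulk sample, more cells of a type cannot be told apart from more RNA per cell.

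Blood cells descend from haematopoietic stem cells through progenitors that commit stepwise to a lineage, and macrophages arise from them by way of monocytes. Among stem and progenitor cells, CD34, KIT and FLT3 are carried at the surface, though not all of them at every stage. These cells depend on transcription factors such as MEIS1, MYB and GATA2, most of which are turned down as myeloid cells mature. BMI1 is a subunit of Polycomb repressive complex 1, which keeps developmental genes silent and is needed for stem cells to renew themselves.

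The promoters of the pair of genes with the smallest p-values are shown because CG dinucleotides in promoters are a common feature of Polycomb targets. The 250 bases before the RefSeq start site are printed from 5′ to 3′ on the strand of the gene, from GRCm38.p6, with each CG in capitals. The window of Cd34 is chr1:194938571-194938820 on the plus strand and that of Sox4 is chr13:28953700-28953949 on the minus strand.
Cd34: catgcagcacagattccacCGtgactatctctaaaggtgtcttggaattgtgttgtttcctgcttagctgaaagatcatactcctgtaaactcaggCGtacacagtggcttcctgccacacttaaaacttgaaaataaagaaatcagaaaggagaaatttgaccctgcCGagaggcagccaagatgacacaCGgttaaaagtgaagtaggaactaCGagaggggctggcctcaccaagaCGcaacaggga
Sox4: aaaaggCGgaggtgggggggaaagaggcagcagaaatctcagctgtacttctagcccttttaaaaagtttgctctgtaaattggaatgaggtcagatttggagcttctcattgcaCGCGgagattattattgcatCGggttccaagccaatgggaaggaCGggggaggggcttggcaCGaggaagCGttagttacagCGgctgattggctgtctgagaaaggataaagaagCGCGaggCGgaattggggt
The Cd34 window held 6 CG, a number that 50.4% of 32841 such windows reached or exceeded. That of Sox4 held 11 (35.6% of windows) and that of Meis1 held 13 (31.5%). Among the genes at few counts in these macrophages the range was wide, with 40 CG in Myb (1.3%) and 0 in Ms4a3. A CG count is a feature of the letters and says nothing about binding.

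Per length, the 10 genes lay over a wide range of levels. Irf8 was the highest, at a mean of 26.0 FPKM over all libraries, followed by Sox4 (5.32 FPKM), Cd34 (4.65 FPKM) and Meis1 (0.877 FPKM). Gata2 averaged 0.141 FPKM, and Mpo, Myb, Ms4a3, Flt3 and Kit lay between 0.075 and 0.01 FPKM. Irf8, which is also a factor of mature macrophages, was the most abundant of the 10 in this sense. Cd34 and Sox4 did not keep one order. In BMI1-KO MM-MΦs their means were 8.14 ± 4.37 FPKM for Cd34 and 6.65 ± 1.27 FPKM for Sox4, within their spread, whereas in wt MΦs they were 1.60 ± 0.27 and 4.04 ± 0.93 FPKM (SD, n = 3 each).

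Without a replicate block, none of the progenitor genes passed edgeR's test between genotypes after adjustment over all genes. For BMI1-KO against wt, the count was 0 of 5 in MM-MΦs, where 0.0634% of all genes passed, and 0 of 5 in MΦs, where 0.0493% passed. At an unadjusted p under 0.05, 3 of the 5 (Cd34, Sox4 and Meis1) lay higher in MM-MΦs, as 2.54% of all genes did, and 2 of the 5 (Cd34 and Sox4) in MΦs, as 2.96% did. DESeq2 called Cd34 and Sox4 in both cultures, where it called 0.627% of all genes in MM-MΦs and 0.563% in MΦs. Limma-voom called 0 of the 5 in both, with 0.0634% and 0.0563% of all genes. Among the 5 genes tested, the libraries of the genotypes did not overlap in CPM and lay higher in BMI1-KO for Cd34 and Sox4 in MM-MΦs (4.40% of all genes) and for Cd34, Sox4 and Meis1 in MΦs (5.17%). Without the filter, Flt3 and Mpo were also of this kind in MM-MΦs at a few counts each, which made 4 of the 10 genes against 3.50% of 24317 genes. Single reads decide this, since Mpo had 2 counts in both BMI1-KO MM-MΦ replicate 1 and wt MM-MΦ replicate 3. The members were chosen with earlier results of these data known, so such shares add no separate support. Cd34 and Sox4 were also the members whose 6 BMI1-KO libraries all lay above all 6 wt libraries, as did 0.923% of all genes.

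CD34 is a sialomucin on the surface of progenitors and also of endothelium and mast cells. Its gene lies at chr1:194938819-194961279 (GRCm38). Cd34 had 311, 514 and 1050 counts in BMI1-KO MM-MΦs (replicates 1 to 3), against 212, 132 and 149 in wt MM-MΦs. In MΦs it had 281, 381 and 868 counts in BMI1-KO, against 143, 98 and 121 in wt. The genotypes did not overlap in either culture, and replicate 3 was the highest of both BMI1-KO groups. The mean in MM-MΦs was 59.5 ± 31.2 CPM for BMI1-KO, against 16.0 ± 4.51 CPM for wt, and in MΦs it was 48.1 ± 26.8 CPM for BMI1-KO, against 11.6 ± 2.52 CPM for wt (SD, n = 3 each).

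The log2 fold change of Cd34 was 1.90 (SE 0.44, 95% interval 0.94 to 2.86) in MM-MΦs, a 3.73-fold difference, with an edgeR adjusted p of 0.266 (unadjusted 0.00108). In MΦs it was 2.05 (SE 0.44, 95% interval 1.08 to 3.02), a 4.14-fold difference, with an edgeR adjusted p of 0.248 (unadjusted 0.000657). Both intervals lay above 0, but they restate the unadjusted p and are not adjusted for the number of genes. The adjusted p missed 0.05. By DESeq2 the adjusted p was 0.00405 in MM-MΦs and 0.00136 in MΦs. Without the 4 libraries numbered replicate 3 the log2 fold change of Cd34 was 1.29 (edgeR adjusted p = 0.303) in MM-MΦs and 1.43 (edgeR adjusted p = 0.293) in MΦs. The fold was thus over 1.5 times smaller without that number.

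**Figure D1:**
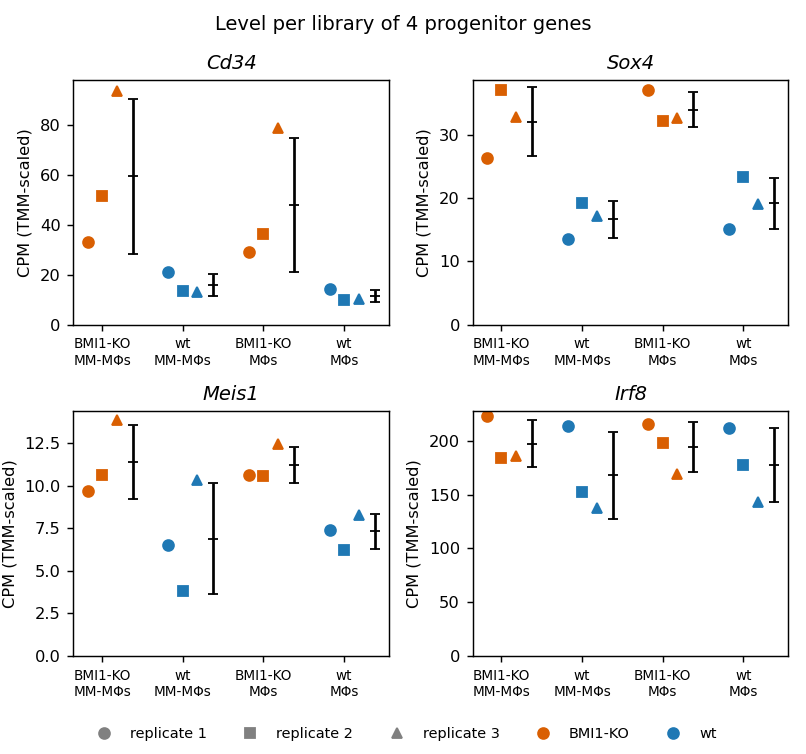
Level per library of Cd34, Sox4, Meis1 and Irf8 in CPM scaled by TMM (linear axes from 0), with replicates as symbols, genotype as colour, and the mean ± SD of 3 libraries as bars. All BMI1-KO libraries lie above all wt libraries for Cd34 and Sox4, replicate 3 stands highest for Cd34 in BMI1-KO, and the groups overlap for Irf8.

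KIT, the receptor for stem cell factor, and FLT3, the receptor for FLT3 ligand, stayed at the limit of detection. Kit (chr5:75574916-75656722) had 0, 2 and 0 counts in BMI1-KO MM-MΦs, against 0, 4 and 0 in wt MM-MΦs, and 2, 1 and 0 in BMI1-KO MΦs, against 0, 2 and 0 in wt MΦs. No library held more than 4 counts, and a difference in Kit was not detectable at this depth. Flt3 (chr5:147330741-147400489) had 4, 2 and 3 counts in BMI1-KO MM-MΦs, against 0 in all 3 wt MM-MΦ libraries. It had 0, 3 and 0 counts in BMI1-KO MΦs, against 1, 0 and 2 in wt MΦs. Over MM-MΦs, the 9 Flt3 counts of BMI1-KO were 3.05 times a chosen floor of 3 counts for the wt group. At so few counts this ratio does not establish a difference. In a fit without the filter its edgeR adjusted p was 0.952 (unadjusted 0.0346). In that fit 0 of the 10 genes passed in MM-MΦs (0.0864% of 24317 genes) or in MΦs (0.0576%), with 4 of the 10 in MM-MΦs (3.71% of genes) and 2 of the 10 in MΦs (4.22%) at an unadjusted p under 0.05. FLT3 is also carried by dendritic cells.

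SOX4 is a transcription factor of progenitors that is lowered during myeloid maturation. Its single-exon gene lies at chr13:28948919-28953713. Sox4 had 248, 370 and 366 counts in BMI1-KO MM-MΦs, against 136, 186 and 195 in wt MM-MΦs. It had 356, 337 and 359 counts in BMI1-KO MΦs, against 149, 228 and 223 in wt MΦs. Every BMI1-KO library was above every wt library, and here no single number stood apart in BMI1-KO. The mean in MM-MΦs was 32.1 ± 5.40 CPM for BMI1-KO, against 16.6 ± 2.86 CPM for wt, and in MΦs it was 33.9 ± 2.74 CPM for BMI1-KO, against 19.2 ± 4.07 CPM for wt (SD, n = 3 each). The log2 fold change was 0.95 (SE 0.20, 95% interval 0.50 to 1.39, edgeR adjusted p = 0.213) in MM-MΦs and 0.82 (SE 0.20, 95% interval 0.38 to 1.27, edgeR adjusted p = 0.371) in MΦs. By DESeq2 the adjusted p was 0.00658 in MM-MΦs and 0.0372 in MΦs. An antisense gene, Gm26735, covers 54.6% of the exonic bases of Sox4 and had 0 counts in all libraries. No source gives the strand setting of the counting, and whether reads over the shared bases were lost from the Sox4 counts was not tested.

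MEIS1 is a homeobox factor that maintains stem cells and acts beside HOXA9 in leukaemia. Meis1 (chr11:18879817-19018985) had 91, 106 and 155 counts in BMI1-KO MM-MΦs, against 65, 37 and 118 in wt MM-MΦs. It had 102, 111 and 137 counts in BMI1-KO MΦs, against 73, 61 and 97 in wt MΦs. In CPM the groups overlapped in MM-MΦs, where wt replicate 3 was above BMI1-KO replicate 1, and did not overlap in MΦs. The log2 fold change was 0.72 (SE 0.31, edgeR adjusted p = 0.976) in MM-MΦs and 0.62 (SE 0.31, edgeR adjusted p = 0.921) in MΦs, so neither passed. With one library left out the value in MM-MΦs ran from 0.43 (without wt replicate 2) to 1.15 (without wt replicate 3). An overlapping gene on the same strand, Gm37818, covers 9.8% of the exonic bases of Meis1 and had 133 counts in all.

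IRF8 directs progenitors towards monocytes and dendritic cells and away from granulocytes. Irf8 (chr8:120736358-120756694) had 2100, 1837 and 2077 counts in BMI1-KO MM-MΦs, against 2140, 1479 and 1569 in wt MM-MΦs. It had 2072, 2080 and 1869 counts in BMI1-KO MΦs, against 2091, 1743 and 1684 in wt MΦs. The libraries of the genotypes overlapped in both cultures. The log2 fold change was 0.23 (SE 0.19, 95% interval −0.18 to 0.65, edgeR adjusted p = 0.999) in MM-MΦs and 0.13 (SE 0.19, 95% interval −0.29 to 0.55, edgeR adjusted p = 0.991) in MΦs. At these counts, the intervals leave out differences as large as that of Cd34.

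GATA2 is a zinc finger factor of stem cells that is also kept in mast cells. Gata2 (chr6:88193891-88207032) had 4, 7 and 7 counts in BMI1-KO MM-MΦs, against 8, 11 and 14 in wt MM-MΦs. It had 4, 6 and 12 counts in BMI1-KO MΦs, against 9, 3 and 9 in wt MΦs. Its MM-MΦ libraries did not overlap and lay lower in BMI1-KO, as 4.46% of all genes did, the opposite side to Cd34 and Sox4. The log2 fold change of −0.84 (SE 0.56, 95% interval −2.06 to 0.39, edgeR adjusted p = 0.999) did not pass. In MΦs it was 0.07 (SE 0.56, edgeR adjusted p = 0.9998), and −0.27 without wt MΦ replicate 2 or −0.42 without BMI1-KO MΦ replicate 3. MYB, a factor needed for the expansion of progenitors, was as sparse. Myb (chr10:21124935-21160984) had 0, 8 and 0 counts in BMI1-KO MM-MΦs, against 0, 1 and 8 in wt MM-MΦs, and 0, 3 and 16 in BMI1-KO MΦs, against 1, 1 and 3 in wt MΦs. Single libraries carried most of the Myb counts, and they were not of one genotype.

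Mpo, the gene of myeloperoxidase, and Ms4a3, a cell cycle regulator of granulocyte-monocyte progenitors, are switched on at the granulocyte-monocyte stage and silenced in macrophages. Mpo (chr11:87793581-87804413) had 2, 13 and 5 counts in BMI1-KO MM-MΦs, against 1, 1 and 2 in wt MM-MΦs. It had 3, 3 and 0 counts in BMI1-KO MΦs, against 0, 0 and 2 in wt MΦs. BMI1-KO MM-MΦ replicate 2 held 13 of the 20 Mpo counts of its group. Ms4a3 (chr19:11629496-11640851) had 0, 6 and 0 counts in BMI1-KO MM-MΦs, against 0, 1 and 0 in wt MM-MΦs, and 0, 1 and 0 in BMI1-KO MΦs, against 0 in all wt MΦ libraries. The same BMI1-KO MM-MΦ replicate 2 held all 6 Ms4a3 counts and all 8 Myb counts of its group. It was also the highest of all libraries for a list of 12 neutrophil genes. That list summed to 20.5, 177 and 18.7 CPM in BMI1-KO MM-MΦs, against 9.68, 22.6 and 17.9 CPM in wt MM-MΦs, and to 39.2, 93.2 and 10.3 CPM in BMI1-KO MΦs, against 9.25, 19.4 and 10.3 CPM in wt MΦs. Among its members, Ngp had 596, Ltf had 451 and S100a8 had 242 counts in that library, and the part of such cells in the Mpo, Ms4a3 and Myb counts was not tested.

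**Figure D2:**
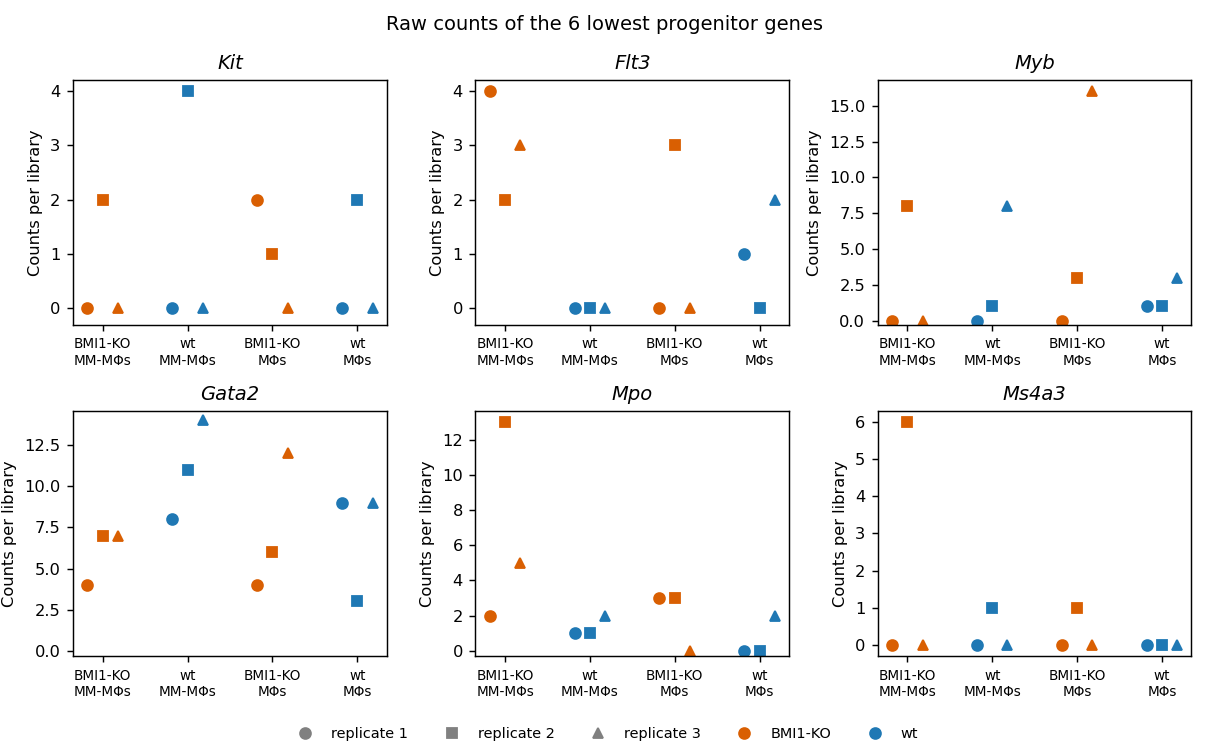
Raw counts per library of Kit, Flt3, Myb, Gata2, Mpo and Ms4a3 in the 4 groups (linear axes), with replicates as symbols and genotype as colour. Most points lie at a few counts, and BMI1-KO MM-MΦ replicate 2 holds 13 Mpo, 6 Ms4a3 and 8 Myb counts.

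Markers of other cells that carry CD34 were set beside its level. Of 11 mast cell and basophil genes, 8 (Fcer1a, Ms4a2, Cma1, Tpsb2, Tpsab1, Mcpt8, Prss34 and Gata1) were at 0 in all libraries, and the list summed to at most 1.70 CPM in any library. Of 7 endothelial genes, 4 passed the filter. The endothelial sum was 30.6 to 90.7 CPM in BMI1-KO MM-MΦs, against 32.6 to 100 CPM in wt MM-MΦs, and 30.1 to 68.6 CPM in BMI1-KO MΦs, against 25.2 to 83.0 CPM in wt MΦs. It overlapped between genotypes and was lowest in replicate 3 of each group, with Vwf and Kdr as its most abundant genes. Cdh5, the gene of VE-cadherin, ran the other way and was highest in replicate 3 of each group, as Cd34 was in BMI1-KO. It had 4, 19 and 30 counts in BMI1-KO MM-MΦs, against 5, 6 and 26 in wt MM-MΦs, and 4, 13 and 14 in BMI1-KO MΦs, against 9, 6 and 30 in wt MΦs. Its log2 fold change was 0.55 (edgeR adjusted p = 0.999) in MM-MΦs and −0.48 (edgeR adjusted p = 0.998) in MΦs. The defining gene Tek did not exceed 1 count and Emcn did not exceed 4 in any library, whereas Pecam1, which macrophages share, was at 0.76 (edgeR adjusted p = 0.999) in MM-MΦs and 1.14 (edgeR adjusted p = 0.637) in MΦs on the log2 scale. Vwf, the gene of von Willebrand factor, was at −1.87 (edgeR adjusted p = 0.752) in MM-MΦs and −1.44 (edgeR adjusted p = 0.855) in MΦs, and Kdr, a receptor for VEGF, was at 0.41 and 0.36 (edgeR adjusted p = 0.999 and 0.9998). The part of endothelial cells in the Cd34 level was not tested. Stromal genes, led by Col1a1, Acta2 and Col1a2, summed to 39.4 to 69.6 CPM in BMI1-KO MM-MΦs, against 25.7 to 69.0 CPM in wt MM-MΦs, and 23.3 to 37.2 CPM in BMI1-KO MΦs, against 31.6 to 68.4 CPM in wt MΦs.

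A list of 10 cycling genes was highest in replicate 3 of each group, as Cd34 was in BMI1-KO. It summed to 340, 790 and 1029 CPM in BMI1-KO MM-MΦs, against 630, 856 and 2706 CPM in wt MM-MΦs. In MΦs it summed to 278, 748 and 946 CPM in BMI1-KO, against 528, 781 and 2660 CPM in wt. All 10 cycling genes had log2 fold changes below 0 between genotypes in both cultures, whereas Cd34 lay above 0. Of the 10, 0 passed edgeR (0.0634% of all genes in MM-MΦs and 0.0493% in MΦs). DESeq2 (0.627% and 0.563%) and limma-voom (0.0634% and 0.0563%) also called 0. At an unadjusted p under 0.05 edgeR held 0 of the 10, against 5.02% of all genes in MM-MΦs and 5.77% in MΦs. Those with the smallest adjusted p were Mki67, the gene of Ki67, at −1.16 in MM-MΦs and −1.32 in MΦs (edgeR adjusted p = 0.999 and 0.957), and Tyms, thymidylate synthase, at −1.57 and −1.73 (edgeR adjusted p = 0.999 and 0.973). In wt, replicate 3 had the highest cycling sum but did not have the highest Cd34 level. The part of cycling cells in the Cd34 difference was not tested.

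**Figure D3:**
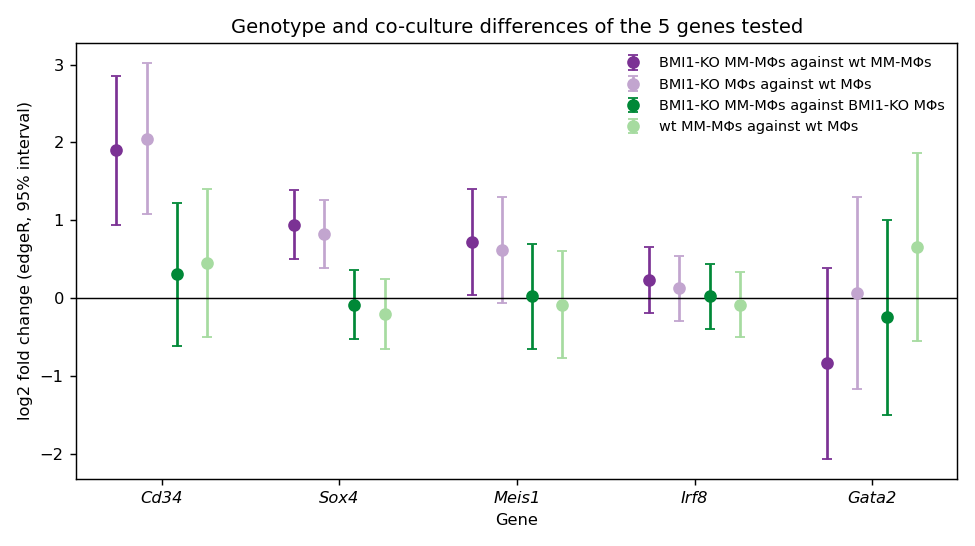
Log2 fold change (edgeR without a replicate block, points) with its 95% interval (bars) of the 5 genes tested, in 2 comparisons of genotype and 2 of co-culture. The intervals of Cd34 and Sox4 lie above 0 in both comparisons of genotype, from 0.94 to 2.86 for Cd34 in MM-MΦs, and all intervals of the co-culture comparisons cross 0.

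Co-culture with myeloma cells left no call among the progenitor genes in either genotype. For MM-MΦs against MΦs, edgeR called 0 of 5 in BMI1-KO, where 0.190% of all genes passed, and 0 of 5 in wt, where 0.0916% passed. At an unadjusted p under 0.05 it was 0 of 5 in BMI1-KO (2.94% of all genes) and 0 of 5 in wt (1.99%). With the replicate number as a block within each genotype, which pairs the cultures, 0 of 5 were called in BMI1-KO (2.17% of all genes) and 0 of 5 in wt (1.10%). At an unadjusted p under 0.05 that fit held Cd34 alone, 1 of 5 in BMI1-KO (10.6% of all genes) and 1 of 5 in wt (6.45%). DESeq2 called 0 of 5 in both, with 0.641% of all genes in BMI1-KO and 0.409% in wt, as did limma-voom, with 0.176% and 0.0141%. The log2 fold change of Cd34 was 0.31 (SE 0.42, edgeR adjusted p = 0.9999) in BMI1-KO and 0.46 (SE 0.43, edgeR adjusted p = 1) in wt. By replicate number, log2(CPM + 0.5) of Cd34 was higher in MM-MΦs in each of 3 pairs, by 0.17, 0.50 and 0.25 in BMI1-KO and by 0.53, 0.43 and 0.33 in wt. Sox4 was at −0.08 (SE 0.20) in BMI1-KO and −0.20 (SE 0.20) in wt, Meis1 at 0.02 (SE 0.31) and −0.08 (SE 0.31), and Irf8 at 0.02 (SE 0.19) and −0.08 (SE 0.19). Gata2 was at −0.25 (SE 0.57) in BMI1-KO and 0.66 (SE 0.55) in wt.

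Whether the co-culture difference depended on genotype was tested by the interaction, in which 0 of 5 progenitor genes and 0% of all genes passed edgeR. At an unadjusted p under 0.05 the interaction held 0 of the 5 and 0.909% of all genes, and DESeq2 and limma-voom called 0. The interaction of Cd34 was −0.15 (SE 0.60, 95% interval −1.47 to 1.17) on the log2 scale and that of Sox4 was 0.12 (SE 0.28, 95% interval −0.50 to 0.74). These intervals leave room for a difference between genotypes that is smaller or larger in MM-MΦs than in MΦs.

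Other genes of stem and progenitor cells differed in sign among themselves. Of 28 stem cell factors and surface genes, 14 passed the filter. EdgeR, DESeq2 and limma-voom called 0 of them between genotypes in either culture, with 2 in MM-MΦs (5.02% of all genes in either direction) and 1 in MΦs (5.77%) at an unadjusted p under 0.05 by edgeR. In MM-MΦs 7 of the 14 lay above 0, with a median log2 fold change of −0.0032, against −0.014 over all genes tested. In MΦs 10 of the 14 lay above 0, with a median of 0.089, against −0.010 over all genes. Tal1, a factor required to form stem cells, had 138, 186 and 288 counts in BMI1-KO MM-MΦs, against 125, 59 and 121 in wt MM-MΦs, and 137, 234 and 256 in BMI1-KO MΦs, against 79, 58 and 134 in wt MΦs. In CPM its groups did not overlap and lay higher in BMI1-KO, as 4.40% of all genes did in MM-MΦs and 5.17% in MΦs. No other of the 14 tested was free of overlap in either culture. Among the list's genes that did not pass the filter, Angpt1 did not overlap and lay lower in BMI1-KO in both cultures. It had 0 to 1 counts in BMI1-KO MM-MΦs, against 2 to 12 in wt MM-MΦs. In MΦs it had 0 to 2 counts in BMI1-KO, against 4 to 8 in wt. The log2 fold change of Tal1 was 1.02 (SE 0.34, edgeR adjusted p = 0.707) in MM-MΦs and 1.23 (SE 0.34, edgeR adjusted p = 0.476) in MΦs. Lyl1, a relative of TAL1, was at 0.67 (SE 0.38, edgeR adjusted p = 0.999) in MM-MΦs and 0.58 (SE 0.38, edgeR adjusted p = 0.972) in MΦs, with overlapping libraries. Procr, the endothelial protein C receptor that marks stem cells, was at −1.54 (SE 0.67, edgeR adjusted p = 0.982) in MM-MΦs and −0.91 (SE 0.66, edgeR adjusted p = 0.973) in MΦs.

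Of 20 myeloid progenitor genes, 14 passed the filter and 0 were called by edgeR, DESeq2 or limma-voom, with 0 in MM-MΦs (5.02% of all genes) and 2 in MΦs (5.77%), 1 in each direction, at an unadjusted p under 0.05 by edgeR. In MM-MΦs 4 of the 14 lay above 0 (median −0.06) and in MΦs 5 of the 14 (median −0.14). Irf4, a factor of monocytes and dendritic cells, was at −1.38 (SE 0.45, edgeR adjusted p = 0.636) in MΦs and −0.47 (SE 0.43, edgeR adjusted p = 0.999) in MM-MΦs. Ly6c2, which marks inflammatory monocytes, was at 2.84 (SE 0.98, edgeR adjusted p = 0.667) in MΦs, with 5 to 22 counts in BMI1-KO, against 0 to 4 in wt, and at 0.91 (SE 0.83, edgeR adjusted p = 0.999) in MM-MΦs. The most abundant monocyte genes, F13a1 and Fn1, lay below 0. F13a1, the gene of coagulation factor XIII A, was at −0.87 in MM-MΦs and −0.96 in MΦs (edgeR adjusted p = 0.999 and 0.936), and Fn1, the gene of fibronectin, was at −1.39 and −1.43 (edgeR adjusted p = 0.999 and 0.889). A list of 8 monocyte genes, which holds Ly6c2, F13a1 and Fn1, summed to 152 to 224 CPM in BMI1-KO MM-MΦs, against 208 to 465 CPM in wt MM-MΦs, and to 117 to 166 CPM in BMI1-KO MΦs, against 111 to 418 CPM in wt MΦs. The sums overlapped between genotypes, and 5 of the 7 monocyte genes tested lay above 0 in each culture. Among these was Ccr2, a chemokine receptor gene and the next in abundance after F13a1 and Fn1, with overlapping libraries. It had 200, 420 and 541 counts in BMI1-KO MM-MΦs, against 453, 257 and 256 in wt MM-MΦs. In MΦs it had 103, 247 and 401 counts in BMI1-KO, against 224, 231 and 155 in wt. The granule protease genes Elane, Prtn3 and Ctsg and the factor gene Gfi1 did not pass the filter.

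The 18 mature macrophage genes summed to 35347 to 57306 CPM in BMI1-KO MM-MΦs, against 34105 to 60606 CPM in wt MM-MΦs. The sums overlapped between genotypes. Not all of these genes were abundant, and Trem2 had at most 113 counts in any library. Because cells were sorted on the proteins of Adgre1 and Itgam, these levels do not test whether BMI1-KO cultures held more immature cells. EdgeR, DESeq2 and limma-voom called 0 of 18 between genotypes in either culture, with 0 in MM-MΦs (5.02% of all genes) and 1 in MΦs (Mrc1, 5.77%) at an unadjusted p under 0.05 by edgeR. Their median log2 fold change was −0.05 in MM-MΦs and −0.15 in MΦs, and 12 of 18 lay below 0 in each. In MM-MΦs, Adgre1 averaged 1327 ± 31.0 CPM for BMI1-KO and 1079 ± 165 CPM for wt (SD, n = 3 each). Its log2 fold change was 0.30 (SE 0.16, edgeR adjusted p = 0.999), and its libraries did not overlap and lay higher in BMI1-KO in both cultures (4.40% of all genes in MM-MΦs and 5.17% in MΦs). Mrc1, the gene of the mannose receptor CD206, averaged 701 ± 229 CPM for BMI1-KO and 1024 ± 13.5 CPM for wt in MM-MΦs. Its log2 fold change was −0.55 (SE 0.28, edgeR adjusted p = 0.999). In MΦs it was at −0.71 (SE 0.28, edgeR adjusted p = 0.795), and its libraries did not overlap and lay lower in BMI1-KO in both cultures (4.46% of all genes in MM-MΦs and 4.83% in MΦs).

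**Figure D4:**
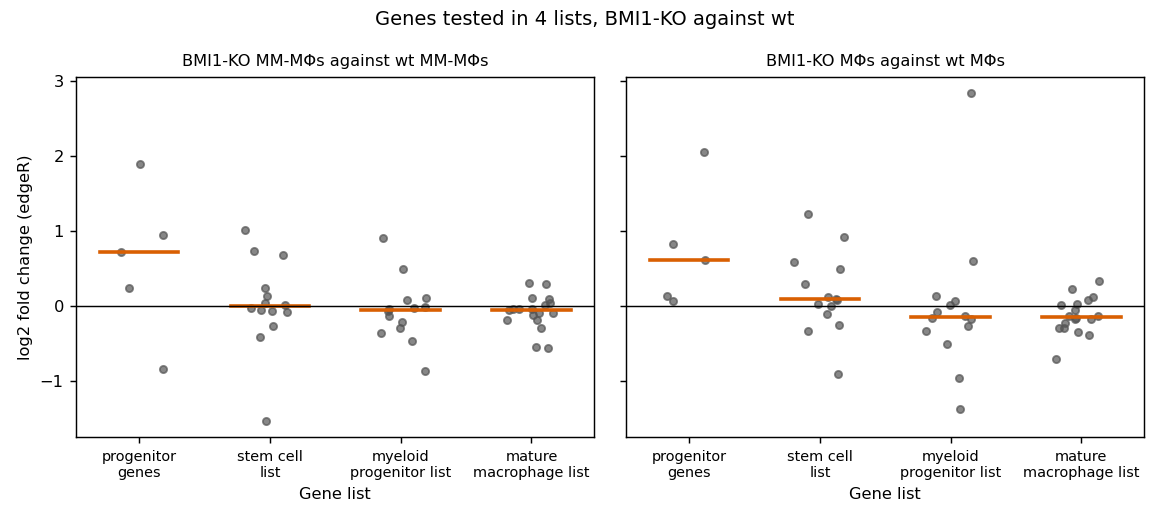
Log2 fold change (edgeR) of each gene tested in 4 lists, BMI1-KO against wt, for MM-MΦs (left) and MΦs (right), with the median of each list as an orange line. The 10 progenitor genes are represented by the 5 that passed the filter, and the medians of the stem cell, myeloid progenitor and mature macrophage lists lie near 0, between −0.15 and 0.089.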

How the data were processed

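RNA-seq libraries of sorted CD11b+ F4/80+ cells were grouped by the genotype, culture and replicate number in the labels (4 groups of 3). The authors deposited raw counts per gene and FPKM values per library. The submitters' processing notes list HTSeq 0.6.1, HISAT2 2.0.1, cutadapt 1.9.1, bcl2fastq 2.17.1.14 and DESeq2, and the builds GRCm38 and mm10. Read length, strand setting and annotation release: not given in the sources used here. Totals were 9662279 to 11142768 counts, and 0 value columns lacked a sample. Deposited FPKM was used only to compare levels between genes and to check the library totals.

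Counts were tested with edgeR 4.0.16 in R 4.3.3 (TMM, quasi-likelihood test, 1 mean per group over 12 libraries). Low genes were removed by filterByExpr (min.count 10, min.total.count 15, large.n 10, min.prop 0.7). Benjamini-Hochberg adjustment ran over the 14197 genes left (threshold 0.05), and the code was tested on simulated data. SE is the log2 fold change over the root of F. CPM are scaled by TMM. Alternatives were DESeq2 1.42.0, limma-voom (limma 3.58.1), other scalings and filters, the compared libraries alone, replicate blocks, libraries left out, and, chosen after seeing the data, both cultures summed per number. Promoters came from RefSeq (GRCm38.p6, 10 of 10 genes matched), and overlapping genes from GENCODE on GRCm38.

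Within a genotype, same-numbered MM-MΦs and MΦs deviated together (correlations across genes of 0.64, 0.18 and 0.60 in BMI1-KO and 0.55, 0.36 and 0.73 in wt, all over 0.1), so the numbers pair cultures. The libraries of one number may then share a marrow, and the comparisons of genotype in the 2 cultures are not independent. Named genes were all 10 members, Bmi1, Cdkn2a, and from other lists members with the smallest adjusted p between genotypes or, for other cell types, the highest mean CPM. Defining markers and the lists' other genes, such as Tek, Emcn, Cdh5, Procr, Fn1, Elane, Ighg2b and Igkc, were named after their values were seen. The members and lists were chosen with earlier results of these data known.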

Additional observations from a re-analysis of the deposited data

How the results depend on the processing

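No progenitor gene was called in any comparison under the other scalings, filters and left-out libraries, or by limma-voom. DESeq2 called 2 (Cd34 and Sox4) in each comparison of genotype, as did the replicate block over all 4 groups (2 in MM-MΦs and 2 in MΦs). With that block the edgeR adjusted p was 0.0276 in MM-MΦs and 0.0185 in MΦs for Cd34, and 0.0121 and 0.0204 for Sox4, and 181 and 206 genes were called over all genes. With both cultures summed per number, 0 were called, and the edgeR adjusted p was 0.450 for Cd34 and 0.448 for Sox4. Between genotypes, same-numbered libraries had correlations across genes of 0.50, 0.03 and 0.51 in MM-MΦs and 0.48, −0.03 and 0.50 in MΦs. Numbers 1 and 3 thus deviated together across genotypes and number 2 did not. Whether the numbers pair genotypes is therefore not settled, and the block over all 4 groups was kept as an alternative. With the replicate block within each genotype, 0 of 5 were called in the co-culture comparisons and the interaction. Cd34 then had an edgeR adjusted p of 0.266 in BMI1-KO and 0.206 in wt, while 308 and 156 genes were called over all genes, and 1 gene in the interaction, against 0 without the block.

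The log2 fold changes of Cd34, Sox4 and Meis1 between genotypes stayed above 0 under every setting run. Leaving out one library gave 1.41 to 2.19 for Cd34 and 0.82 to 1.07 for Sox4 in MM-MΦs, and 1.497 to 2.31 and 0.68 to 0.99 in MΦs. Small differences changed sign. Gata2 in BMI1-KO MΦs against wt MΦs ran from −0.42 to 0.35, and was −0.42 with both cultures summed. In BMI1-KO MM-MΦs against BMI1-KO MΦs the ranges were −0.17 to 0.87 for Cd34, −0.20 to 0.043 for Sox4, −0.13 to 0.13 for Meis1, −0.50 to 0.24 for Gata2 and −0.072 to 0.10 for Irf8. Without the libraries numbered replicate 3 Meis1 was at −0.06 and Irf8 at −0.02 there. In wt MM-MΦs against wt MΦs they were −0.51 to 0.21 for Meis1 and −0.29 to 0.065 for Irf8. In the interaction they were −0.63 to 0.41 for Cd34, −0.035 to 0.26 for Sox4, −0.18 to 0.54 for Meis1 and −0.041 to 0.32 for Irf8. The cause was not tested.

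Over all genes, BMI1-KO against wt in MM-MΦs held 9 calls, 89 by DESeq2, 21 without a filter, 4 with the compared libraries alone, 2 with both cultures summed and 3 to 6 with one library left out. In MΦs it held 7, 80, 14, 2, 2 and 2 to 4 in the same order. BMI1-KO MM-MΦs against BMI1-KO MΦs held 27 calls, 91 by DESeq2, 42 without a filter, 0 with the compared libraries alone, 1 without the libraries numbered replicate 3 and 4 to 23 with one library left out. In wt MM-MΦs against wt MΦs the count was 13, 58, 22, 6, 1 and 0 to 3, and 2 by limma-voom. Depth limited Kit, Flt3, Myb, Mpo and Ms4a3, whose counts did not exceed 16 in any library.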

Other observations

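A few genes of other cell types lay apart between genotypes, with no call by edgeR on the filtered genes. Without the filter edgeR called Siglecf in MM-MΦs. Cd79b, a signalling subunit of the B cell receptor, had 174, 180 and 208 counts in BMI1-KO MM-MΦs, against 107, 69 and 120 in wt MM-MΦs. Its log2 fold change was 0.96 (SE 0.24, edgeR adjusted p = 0.416) there and 0.97 (SE 0.25, edgeR adjusted p = 0.383) in MΦs. Igll1 and Dntt, which mark B cell precursors, were at 0 in all libraries. Siglecf, a receptor of eosinophils and alveolar macrophages, had 12, 21 and 9 counts in BMI1-KO MM-MΦs, against 108, 379 and 64 in wt MM-MΦs, and its log2 fold change was −3.73 (SE 0.80, edgeR adjusted p = 0.213) there and −2.69 (SE 0.76, edgeR adjusted p = 0.498) in MΦs. Itgax, the gene of CD11c on dendritic cells and some macrophages, was at −3.13 (SE 0.86, edgeR adjusted p = 0.496) in MM-MΦs and −3.0 (SE 0.86, edgeR adjusted p = 0.5001) in MΦs. Sdc1, the syndecan that marks plasma cells, was at −2.23 (SE 0.63, edgeR adjusted p = 0.496) in MM-MΦs and −2.40 (SE 0.63, edgeR adjusted p = 0.444) in MΦs. Sdc1 also had 827, 1169 and 284 counts in wt MΦs, to which no myeloma cells were added. Of its list, Ighg2b, Igkc and Pou2af1 overlapped in CPM between genotypes in MM-MΦs. The part of plasma or myeloma cells in the Sdc1 difference was not tested. In CPM, the libraries of the genotypes did not overlap for Cd79b, Siglecf, Itgax and Sdc1 in either culture. Over all genes, 4.40% lay higher in this way and 4.46% lower in MM-MΦs, and 5.17% and 4.83% in MΦs. Genes of these lists were named partly by their adjusted p, so this adds no separate support. DESeq2 called Cd79b, Siglecf and Sdc1 in both cultures and Itgax in neither, with 0.627% of all genes called in MM-MΦs and 0.563% in MΦs.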
